A study of Mus musculus with 10 samples.

Results

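The comparison described here sets epidermal cells of mice carrying Krt14-CREER and Rosa-SmoM2 at 8 weeks against cells of the same genotype at 6 weeks. It covers 4 of the 10 libraries of the series, with 2 at each time. Genes were taken when at least 2 of these 4 libraries gave a value of at least 10, which left 19285 of 49671 genes. Titles write TAM after the weeks, which is read as time after tamoxifen and not as the age of the mice. Cells expressing SmoM2-YFP were sorted by FACS, and polyadenylated RNA was sequenced in bulk. The titles of all 4 libraries name the same engineered alleles, so the groups differ in their titles by time alone. The deposited column names also carry running numbers, lower for both 6-week libraries than for both 8-week libraries. What these numbers stand for is not stated, and any effect of that order cannot be told apart from time. Whether the mice were alike at other loci is not shown by the titles. The remaining 6 libraries hold the same SmoM2 allele with Survivin loss of function at 6 weeks (Krt14 driver), or at 8 weeks under an Inv-CREER driver without or with Krt14rtTA and Survivin gain of function. They entered the fit for its estimate of spread. The labels do not say that the 2 libraries of a time came from separate animals. P-values therefore measure the spread between libraries of a group, pooled over all 5 groups, which may be technical.

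SmoM2 is a mutant of Smoothened, the membrane protein that passes on the Hedgehog signal, and it signals without ligand. Hedgehog ligands normally bind the receptor Patched, which releases Smoothened and lets GLI factors turn on targets such as Gli1, Ptch1 and Hhip. Active Hedgehog signalling in the epidermis is the hallmark of basal cell carcinoma. The Krt14 promoter is active in basal keratinocytes of the interfollicular epidermis, the hair follicle and the rim of the sebaceous gland, so CreER under it can recombine in all 3 compartments. The sebaceous gland is an appendage of the hair follicle whose cells fill with wax esters, triglycerides and sterols before they burst.

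Values below are normalized counts as deposited, in the order library 1, library 2 of each time. Changes are log2 differences, 8 weeks minus 6 weeks, with their standard error (SE), on the scale log2(value + 1), which understates the change of low genes. Recovered reads numbered 8373858 and 7744620 at 6 weeks and 8645280 and 7843149 at 8 weeks. A value of 3 reads, taken as the floor, lay between 6.94 and 7.75. Log2 values correlated across genes at 0.976 between the 6-week libraries and 0.982 between the 8-week libraries, and at 0.956 to 0.967 between times. The 8-week libraries detected more genes, 25086 and 25171 above 0 against 23897 and 23132. Mitochondrial transcripts took 2.39% and 2.34% of the values at 6 weeks and 2.60% and 2.74% at 8 weeks.

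The cells carried the keratinocyte markers at both times. Krt5, a keratin of basal cells, stood at 134848 and 149229 at 6 weeks and at 118123 and 122426 at 8 weeks. Its partner Krt14 stood at 82688 and 84983, then at 70080 and 75213 (log2 change -0.21, SE 0.15, adjusted p = 0.432). Trp63, the transcription factor of basal epithelia, stood at 31859 and 34933, then at 26887 and 28089. Cdh1, Epcam, Dsp and Krt15 were also present in all 4 libraries, from 4733 for Epcam to 130790 for Dsp. Of 7 matched hemoglobin and erythroid genes, 6 were at 0 in all 4 libraries and Alas2 stood between 42 and 95. Of the macrophage and Langerhans markers other than Epcam, Csf1r stood at 115 and 135, then at 109 and 169, and Cd74 at 79 and 55, then at 100 and 230, while Adgre1, Lyz2 and C1qa gave at most 12.

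At an adjusted p of 0.05 (limma, Benjamini-Hochberg), 1124 genes were called between 8 and 6 weeks, 5.83% of those tested. Of these, 924 rose (4.79% of tested genes) and 200 fell (1.04%), and 673 (3.49%) differed by at least 2-fold. Values of the 2 times did not overlap for 11647 genes, 60.4% of those tested, so a lack of overlap alone separates few genes here. The median change was 1.34 among genes that rose and -0.78 among those that fell. Of the genes that rose, 133 sat at or below the floor in one group, and none of these is given a fold below.

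The share of rises depended on scaling and the number of calls on single libraries. Rises made up 82.2% of calls in the values as deposited, 65.4% after quantile normalization and 52.4% after rescaling by the median of ratios, where 624 genes rose and 566 fell. It was 70.0% in a fit to the 4 libraries alone and 70.3% with limma-voom on recovered reads. The median change over all tested genes was 0.12 as deposited and -0.02 under either rescaling, and list medians below are to be read against that 0.12. As deposited, the median also fell with level, from 0.56 for genes with a mean under 50 to -0.01 from 1000 up. For a list of low genes 0.12 is thus too low a baseline, and for a list of abundant genes too high. Leaving out 8-week library 2 left 79 calls, 8-week library 1 left 147, 6-week library 2 left 250 and 6-week library 1 left 880. Of 131 called genes that are named or were followed individually, 26 stayed called under all 20 alternative settings, 32 lost the call only when a library was left out, and 73 lost it under another setting as well. None of the 131 changed direction.

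**Figure D1:**
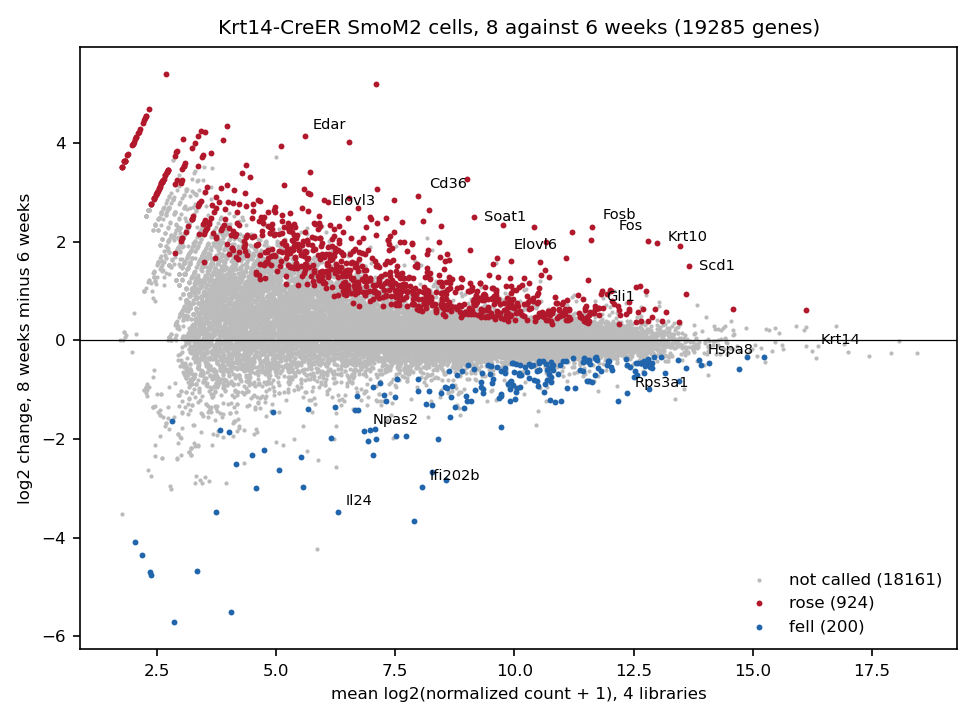
Each point is 1 of the 19285 tested genes, with the mean log2(normalized count + 1) over the 4 libraries on the x axis and the log2 change, 8 weeks minus 6 weeks, on the y axis. The 924 genes that rose (red) outnumber the 200 that fell (blue), and at low means the rises reach past 4.

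The gene group with the highest share of rises was that of the sebaceous gland. Of its 22 tested members, 13 rose and none fell (59.1%, against 4.79% of all genes), and the median change was 1.03 against 0.12 over all genes. One of the 13, Awat1, a wax ester synthase, stood at 3 and 0 at 6 weeks and passed the filter through its 8-week values of 14 and 18. Of 28 genes of sterol and fatty acid synthesis, 12 rose (42.9%) and none fell, with a median of 0.43. The summed level of the sebaceous list was 49954 and 46311 at 6 weeks and 86296 and 78529 at 8 weeks, a ratio of 1.71. Such a sum is weighted towards abundant members such as Scd1 and Krt79, whose values are given below. In bulk RNA, more cells of a type and more RNA per cell cannot be told apart.

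Among the enzymes that lengthen and desaturate fatty acids, Elovl3, an elongase of skin lipids, stood at 70 and 62 at 6 weeks and at 484 and 470 at 8 weeks. That is 7.23-fold higher (log2 change 2.84, SE 0.19, adjusted p = 5.93e-05). Elovl6, which extends palmitate to stearate, stood at 1044 and 1160, then at 5553 and 4585 (log2 change 2.20, SE 0.16, adjusted p = 7.49e-05). For both elongases every 8-week library lay well above every 6-week library. Scd1, the desaturase that makes oleate and palmitoleate, rose from 8140 and 7301 to 22984 and 20745 (log2 change 1.50). Its paralog Scd3 rose from 53 and 81 to 519 and 263, and its 8-week libraries differed from each other by more than those of Scd1. Because the Scd genes are close in sequence, reads could be split between them.

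Soat1, which esterifies cholesterol for storage, rose from 614 and 610 to 3075 and 2948, with 6-week libraries almost equal (4.92-fold, log2 change 2.30, SE 0.13, adjusted p = 1.88e-05). Far2, which makes fatty alcohols for wax esters, rose from 865 and 837 to 2751 and 2395 (log2 change 1.59). Mgst1, a membrane glutathione transferase abundant in sebocytes, rose from 280 and 290 to 1021 and 1005 (log2 change 1.83). The regulators rose at low levels. Pparg, the nuclear receptor that drives sebocyte and fat cell differentiation, went from 48 and 31 to 146 and 176 (log2 change 2.03). Mc5r, the melanocortin receptor of the gland, went from 43 and 19 to 132 and 85, and the lipid droplet gene Cidea from 34 and 16 to 155 and 102. Krt79, a keratin of the gland duct and upper follicle, started high and rose less, from 21728 and 18152 to 32603 and 29132 (log2 change 0.63, adjusted p = 0.0409).

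Genes of lipid handling outside the list also rose. Fa2h, Cd36 and Acoxl were among the 10 largest rises of called genes with a mean of at least 50 and no overlap. That ranking left out predicted models and pseudogenes. Fa2h, which hydroxylates fatty acids, rose from 211 and 127 to 1805 and 1400 (9.48-fold, log2 change 3.27, SE 0.25, adjusted p = 9.85e-05). Cd36, a receptor for fatty acid uptake, rose from 96 and 86 to 697 and 692 (7.63-fold, log2 change 2.92, SE 0.16, adjusted p = 1.88e-05). Acoxl, an acyl-CoA oxidase-like gene, rose from 15 and 16 to 158 and 120, and the dehydrogenase gene Sdr16c6 from 366 and 406 to 2071 and 1819. All 4 kept apart at the 2 times by a gap wider than the spread within either.

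In the sterol pathway the rises were smaller. Idi1, the isopentenyl isomerase, rose from 817 and 879 to 2069 and 1717 (log2 change 1.15), and Lss, which closes the sterol rings, from 860 and 933 to 1722 and 1630 (log2 change 0.90). Hmgcs1, an entry enzyme of the pathway, rose from 4835 and 5346 to 8190 and 6934 (log2 change 0.57, SE 0.10, adjusted p = 0.0139). Srebf1, the factor that turns on fatty acid synthesis, rose by 0.48 from 2465 and 2505 to 3533 and 3405. Members of the same pathway that were not called included Sqle (2334 and 2937, then 2654 and 2364) and Fasn (6640 and 6875, then 8518 and 7995).

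Elovl3, Elovl6, Soat1, Far2, Mgst1, Scd3, Fa2h, Cd36, Acoxl, Sdr16c6 and Idi1 stayed called under all alternatives. Hmgcs1, Srebf1 and Krt79 lost the call after median-of-ratios rescaling and whenever any of the 4 libraries was left out. Scd1, Cidea and Mc5r lost it without 6-week library 2 or either 8-week library. Cidea also lost it in limma-voom on recovered reads and Mc5r after quantile normalization. Lss lost it without either 8-week library, and Pparg without 8-week library 2. The sebaceous count ranged from 9 to 13 under the settings that kept all 4 libraries, and the sterol count from 6 to 16. Without 8-week library 2 they were 5 and 3, without 8-week library 1 they were 6 and 3, without 6-week library 2 they were 6 and 4, and without 6-week library 1 they were 11 and 6. In the Inv-CREER SmoM2 libraries at 8 weeks the summed sebaceous level was 220827 and 223982, above all 4 Krt14 libraries. Scd1 alone stood at 113521 and 118185 there. The list member Krt79 went the other way, at 12521 and 11972, below all 4 Krt14 libraries. No test was made between the drivers.

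**Figure D2:**
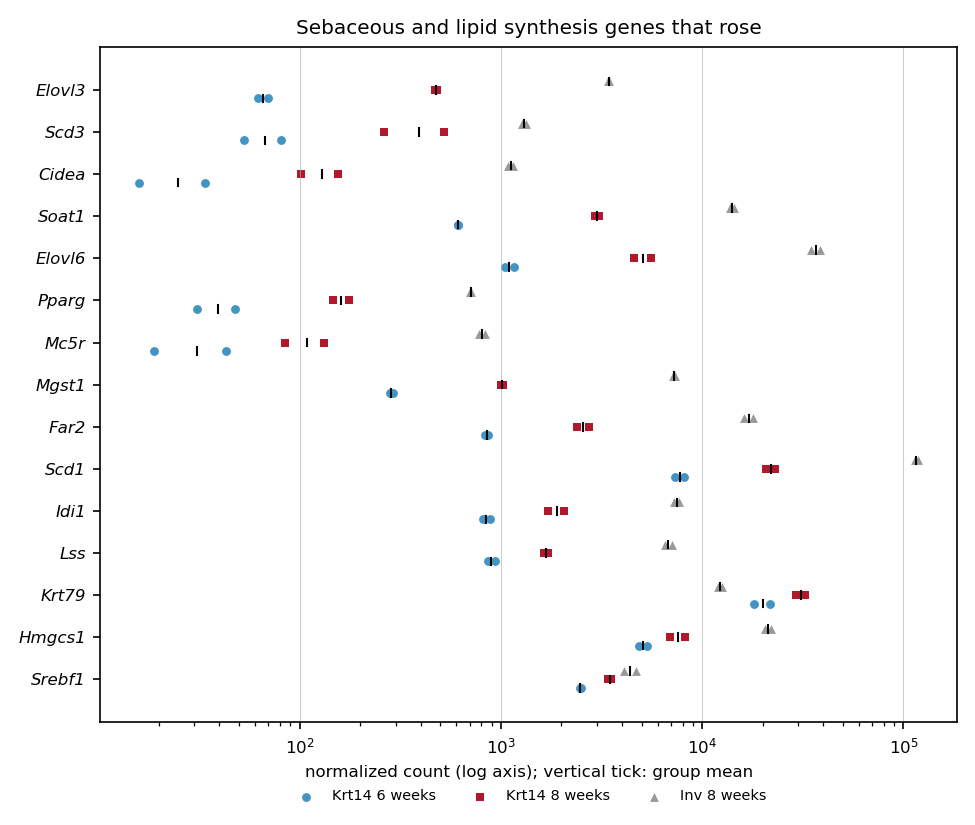
Normalized counts (log axis) of the sebaceous and lipid synthesis genes named above that rose, with 1 point per library and a vertical tick at each group mean. In each gene both Krt14 libraries at 8 weeks lie to the right of both at 6 weeks. That held for all 924 genes that rose, so it follows from drawing called genes. The Inv-CREER libraries at 8 weeks are drawn in grey for context.

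Sterol regulatory elements are short sequences bound by SREBP factors. Of the 12 sterol and fatty acid synthesis genes that rose, 8 had a promoter window in the RefSeq table (GRCm38.p6), and 1 of these, Hmgcs1, held the letters TCACNCCAC on either strand within 250 bases before the start. Such a match occurred in 1.05% of the windows of all genes, and no match in a window says only that these letters are absent there. The Hmgcs1 window, shown because it is the one with the match, is chr13:119690101-119690350, plus strand, with the matching letters in capitals.
Hmgcs1: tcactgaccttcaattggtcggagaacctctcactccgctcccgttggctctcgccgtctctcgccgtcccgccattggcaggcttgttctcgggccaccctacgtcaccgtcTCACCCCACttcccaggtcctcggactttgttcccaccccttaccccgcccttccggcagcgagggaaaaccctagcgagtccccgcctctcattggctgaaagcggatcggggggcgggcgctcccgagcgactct

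One Hedgehog target rose. Gli1, the target most used as a readout of the pathway, stood at 2921 and 2583 at 6 weeks and at 4546 and 4154 at 8 weeks, with no overlap. It rose 1.58-fold (log2 change 0.66, SE 0.11, adjusted p = 0.00909), and the call was lost without 6-week library 2 or either 8-week library. It was the 1 call among 12 tested Hedgehog targets (8.33%, against 4.79% of all genes), whose median change was 0.68 against 0.12 over all genes. Ptch1, the receptor that is also a target, stood at 15284 and 8556, then at 19937 and 17710 (log2 change 0.72, SE 0.27, adjusted p = 0.144). The 6-week libraries of Ptch1 differed from each other by more than the 8-week libraries did. Hhip, which binds and traps Hedgehog ligands, stood at 383 and 530, then at 1449 and 1240 (log2 change 1.57, adjusted p = 0.0628).

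None of the 13 tested pathway components was called, and their median change was 0.01. Smo itself, which counts endogenous and transgene reads together unless they differ in sequence, stood at 8138 and 7306, then at 7484 and 7013 (log2 change -0.09, SE 0.11). Gas1, a co-receptor and the most abundant component, stood at 9704 and 9793, then at 8551 and 8183. The ligand genes Shh and Ihh gave at most 5 in any of the 4 libraries.

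Birc5, which encodes Survivin, stood at 961 and 1103 at 6 weeks and at 1005 and 926 at 8 weeks, with overlapping libraries (log2 change -0.09, SE 0.28, adjusted p = 0.877). That SE draws on all 5 groups, including the Survivin gain of function libraries, where Birc5 stood at 7277 and 16384. None of the 8 genes of the chromosomal passenger complex, to which Survivin belongs, was called (median -0.07), nor any of 35 replication genes (median -0.04) or 35 mitotic genes (median 0.00). Mki67, the proliferation marker, stood at 24228 and 21357, then at 28423 and 24565 (log2 change 0.22, adjusted p = 0.328). The topoisomerase Top2a stood at 13299 and 13773, then at 13067 and 11567.

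Among genes of the spinous layer, where keratinocytes leave the basal layer and begin to differentiate, 3 of 22 rose (13.6%, against 4.79% of all genes) and none fell, and the median change was 0.00. After median-of-ratios rescaling 3 members rose and 3 fell. The 3 were the paired keratins Krt1 and Krt10 and the desmosomal cadherin Dsc1. Krt10 stood at 2972 and 5741 at 6 weeks and at 17275 and 15306 at 8 weeks (3.74-fold, log2 change 1.98, SE 0.28, adjusted p = 0.00454). Krt1 stood at 4257 and 8034, then at 22262 and 21461 (log2 change 1.90, SE 0.32, adjusted p = 0.0103), and 6-week library 2 was the higher of its pair for both keratins. Dsc1 went from 889 and 1297 to 2719 and 2548 (log2 change 1.29). Per kilobase of exon, the mean level of Krt10 was 2061 at 6 weeks and 7706 at 8 weeks, against 47688 and 41323 for Krt14. All 3 lost the call without either 8-week library. Ivl, the envelope protein of upper layers, stood at 172 and 189, then at 165 and 258 (log2 change 0.19, adjusted p = 0.793).

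Of 27 genes of the granular and cornified layers, 1 rose (3.7%, against 4.79% of all genes) and none fell. It was Scel, which went from 3105 and 2797 to 4435 and 3966 (log2 change 0.51). Flg, the filaggrin precursor, stood at 65 and 132, then at 445 and 278 (adjusted p = 0.0682).

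Some genes that anchor basal cells to the basement membrane fell. Of 28 basal and basement membrane genes 4 fell (14.3%, against 1.04% of all genes), 1 rose and 23 were not called, and 10 of the 28 had a positive change (median -0.23). Col17a1, a hemidesmosomal collagen, fell from 30942 and 34339 to 20719 and 23111 (log2 change -0.57, SE 0.10, adjusted p = 0.0131). Itga6, the integrin chain of the same junction, fell from 18200 and 18684 to 12382 and 13768 (log2 change -0.50). The laminin chain Lamb3 fell from 6258 and 6397 to 4222 and 4672 (log2 change -0.51). Nid1, a linker of laminin and collagen networks, rose at a low level, from 39 and 44 to 112 and 102. Each of these 4 calls was lost without 6-week library 2 or without either 8-week library, and the count of falls was between 2 and 11 under the settings that kept all libraries.

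In the keratinocyte stress and wound list, 2 of 31 members fell (6.45%, against 1.04% of all genes) and none rose, while 4 of 31 had a positive change (median -0.45). Il33, an alarmin released by damaged epithelium, fell from 1594 and 938 to 530 and 551 (log2 change -1.18, adjusted p = 0.0221), a call lost without 6-week library 1 or either 8-week library. Krt6a and Krt17, keratins of activated epidermis, stood at 38838 and 53795, then 31648 and 35496, and at 81236 and 105351, then 70890 and 74264. Neither keratin was called (adjusted p = 0.358 and 0.439).

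Genes of embryonic follicle progenitors, a programme that basal cell carcinoma shares, changed in a few members. Of 21 tested, 4 rose (19%, against 4.79% of all genes) and 1 fell, and the median change was 0.39. The rises numbered 1 without 6-week library 2 and 0 without either 8-week library. Edar, the ectodysplasin receptor of hair placodes, stood at 32 and 3 at 6 weeks and at 218 and 189 at 8 weeks (log2 change 4.15, SE 0.71, adjusted p = 0.0107). Its low 6-week values make the size of that change uncertain, and the call was lost without either 8-week library. Lef1, a Wnt effector, rose from 352 and 202 to 674 and 526 (log2 change 1.16), Dlx3 from 194 and 161 to 567 and 380, and Sox4 from 5069 and 3704 to 7223 and 6238. Sox6 fell from 349 and 158 to 77 and 57 (log2 change -1.81, adjusted p = 0.0306). Lhx2, Lgr5 and Sox9, which mark the same compartments, were not called: Lgr5 stood at 3951 and 2666, then at 4054 and 3902.

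Of 26 SOX and follicle transcription factors 4 rose (Sox4, Sox5, Sox13 and Irx4) and 2 fell (Sox6 and Irx5), against 4.79% and 1.04% of all genes. No rise was called without 6-week library 2 or either 8-week library, and at most 1 fall was called with any library left out. Sox5 went from 693 and 393 to 1116 and 1051, and Sox13 from 961 and 587 to 1650 and 1551. Sox5, Sox6 and Sox13 belong to a single SOX subgroup, in which Sox6 fell while Sox5 and Sox13 rose.

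In the bulge and upper follicle list, 2 of 18 rose and 1 fell (11.1% and 5.56%, against 4.79% and 1.04% of all genes). Lrig1, which marks stem cells of the upper follicle and sebaceous gland and dampens EGF receptor signalling, rose from 4240 and 3990 to 8757 and 8589 (2.11-fold, log2 change 1.08, SE 0.10, adjusted p = 0.000591). The other two calls were Krt79 and Col17a1, given above. Lrig1 stayed called under all 20 alternatives. Of 20 hair shaft and root sheath genes 2 rose (10%, against 4.79% of all genes). They were Dlx3 and Krt28, an inner root sheath keratin that went from 29 and 21 to 225 and 143 (log2 change 2.81).

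Among 31 Wnt pathway genes 4 rose and 2 fell (12.9% and 6.45%, against 4.79% and 1.04% of all genes), with a median of 0.20. Rnf43, a ligase that removes Wnt receptors, rose from 707 and 700 to 1252 and 1276 (log2 change 0.84, SE 0.11, adjusted p = 0.0028; not called without 8-week library 2), and Apcdd1, an inhibitor at the membrane, from 789 and 840 to 1419 and 1337. The receptor Fzd2 and Lef1 also rose. Wnt10a, a ligand of follicles and taste papillae, fell from 1233 and 1493 to 660 and 714 (log2 change -0.98), and Tcf7 fell from 2138 and 1651 to 1072 and 1059. Axin2, a general Wnt target, stood at 664 and 672, then at 764 and 653, and was not called.

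Immediate early genes, which are transcribed within minutes of a stimulus, included 7 that rose among 26 tested and none that fell (26.9%, against 4.79% of all genes). The median change was 0.38. Fosb stood at 1402 and 1467 at 6 weeks and at 6964 and 7112 at 8 weeks (4.91-fold, log2 change 2.29, SE 0.15, adjusted p = 4.79e-05). Fos stood at 3542 and 3515, then at 14589 and 14061 (4.06-fold, log2 change 2.02, SE 0.15, adjusted p = 7.49e-05). Both genes differed far more between times than within, and both stayed called under all alternatives.

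The nuclear receptor Nr4a1 rose from 810 and 1103 to 2332 and 2418 (log2 change 1.33), and the phosphatase Dusp1 from 824 and 1227 to 2103 and 2099 (log2 change 1.06). Jun and Egr1 rose by 1.00 and 0.93 and Atf3 by 1.29 (adjusted p = 0.043, 0.0491 and 0.0266). Jun and Egr1 lost the call under either rescaling and Atf3 after quantile normalization. Each also lost it when any of the 4 libraries was left out. The list was not uniform. Fosl1 stood at 848 and 1292, then at 447 and 444, and Myc at 2265 and 2423, then at 1273 and 1370, and neither was called (adjusted p = 0.101 and 0.122). The list also holds genes that respond to tissue dissociation, and how far sorting contributed was not tested. Its count was 5 after median-of-ratios rescaling, 4 without 6-week library 2 and 2 without each of the other 3 libraries.

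A cAMP response element, the letters TGACGTCA, was found on 1 of the 6 promoter windows available for the 7 immediate early genes that rose, that of Dusp1, and in 1.55% of the windows of all genes. The same windows held no AP-1 site (TGAGTCA, in 4.46% of all windows) and no CArG box (1.47%). The response element is shown as the one match among them, with its letters in capitals, over the part of the window free of annotated exons, chr17:26508520-26508722, on the minus strand (RefSeq, GRCm38.p6).
Dusp1: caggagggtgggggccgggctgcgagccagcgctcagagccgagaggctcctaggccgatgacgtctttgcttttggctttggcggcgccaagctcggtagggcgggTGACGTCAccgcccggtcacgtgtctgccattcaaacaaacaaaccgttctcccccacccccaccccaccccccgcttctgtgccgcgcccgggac

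Some chaperones fell by modest amounts. Of 18 heat shock genes 6 fell and none rose (33.3%, against 1.04% of all genes), with a median of -0.25. Hsph1, a co-chaperone of the HSP110 family, fell from 2119 and 2604 to 1358 and 1263 (log2 change -0.84, SE 0.16, adjusted p = 0.0157). The mitochondrial chaperonin pair Hspd1 and Hspe1 fell from 4885 and 5478 to 3480 and 3382 and from 1689 and 1713 to 1220 and 1270. Hspa8, Hsp90aa1 and the endoplasmic reticulum chaperone Hspa5 fell too, with log2 changes of -0.40, -0.46 and -0.44. The stress-induced genes Hspa1a and Hspa1b, near-identical copies whose reads may be shared, stood between 992 and 1081 and between 2181 and 2325 in all 4 libraries. The count was also 6 after median-of-ratios rescaling, 3 falls were called after quantile normalization, and none was called without 6-week library 2 or either 8-week library.

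In the circadian list, 4 of 19 rose and 1 fell (21.1% and 5.26%, against 4.79% and 1.04% of all genes). Per3 rose from 614 and 434 to 1317 and 1202 (2.40-fold, log2 change 1.28, SE 0.21, adjusted p = 0.00826). Dbp and Hlf, PAR bZIP factors that bind D-box elements, rose from 321 and 197 to 530 and 452 and from 287 and 176 to 442 and 388. Npas2, the partner of Arntl that can stand in for Clock, fell from 256 and 181 to 56 and 64 (3.64-fold lower, log2 change -1.83, SE 0.21, adjusted p = 0.00204), and stayed called under all alternatives. The core genes were not called: Arntl stood at 574 and 434, then at 470 and 459, Nr1d1 at 1037 and 690, then at 912 and 791, and Per2 at 600 and 677, then at 738 and 748. The time of day at which the skin was taken is not given in the sources used here. Without 6-week library 2 or 8-week library 2 the rises numbered 1, and without 8-week library 1 none, and limma-voom on recovered reads called 1.

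The letters of the D-box, TTANGTAA, were present in 1 of the 4 promoter windows available for the 5 clock genes called, that of Per3, at 2 places, and in 2.06% of the windows of all genes. None of the 4 held the E-box CACGTG, found in 6.02% of all windows. The Per3 window, shown for these 2 matches in capitals, is chr4:151044666-151044915 on the minus strand (RefSeq, GRCm38.p6).
Per3: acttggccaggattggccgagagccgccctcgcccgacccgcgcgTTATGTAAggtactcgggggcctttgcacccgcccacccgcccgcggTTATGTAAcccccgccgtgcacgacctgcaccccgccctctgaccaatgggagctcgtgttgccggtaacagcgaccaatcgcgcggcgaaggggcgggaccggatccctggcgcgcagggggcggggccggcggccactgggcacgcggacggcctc

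**Figure D3:**
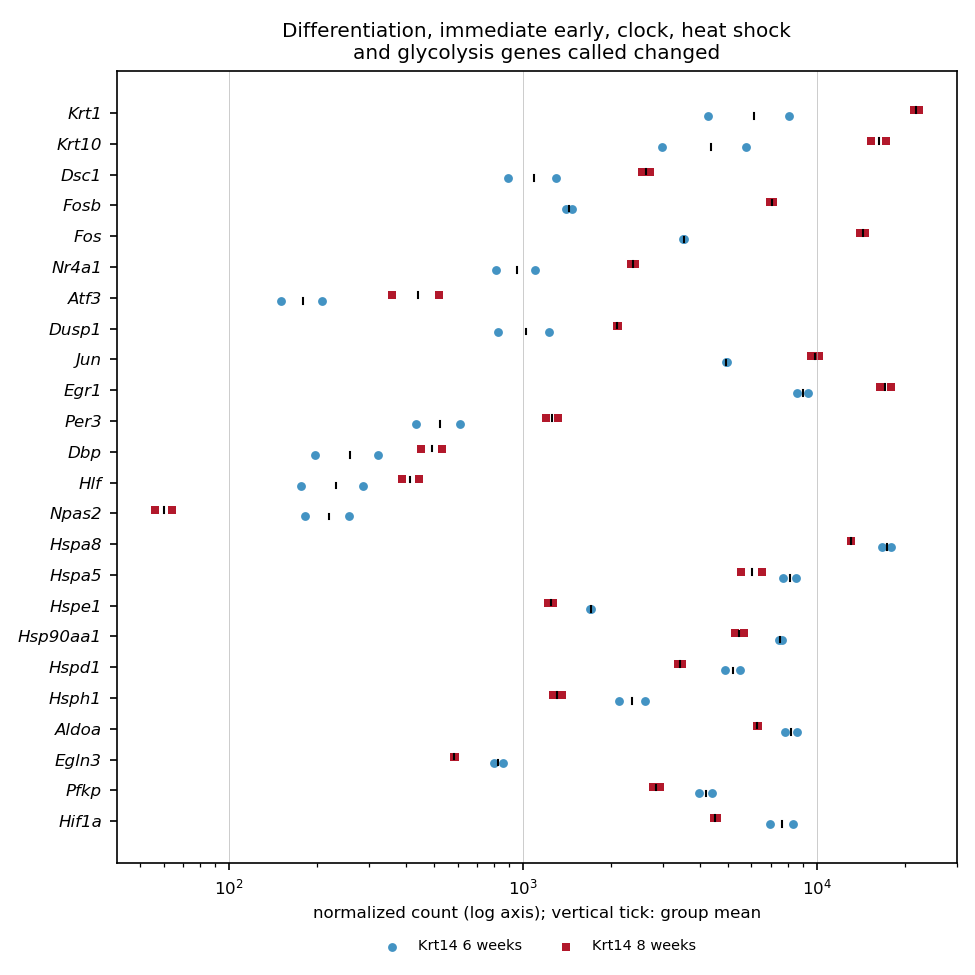
Normalized counts (log axis) of the called genes named here from the spinous, immediate early, circadian, heat shock and glycolysis lists, with 1 point per library and a vertical tick at each group mean. Both 8-week libraries lie on one side of both 6-week libraries in every gene drawn. That held for all 924 rises and 200 falls called, so it follows from drawing called genes. The gap is widest relative to the spread within each time in Fos and Fosb.

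Of 26 glycolysis and hypoxia genes 4 fell (15.4%, against 1.04% of all genes), none rose and 22 were not called. A positive change was seen in 4 of 26. Hif1a, the oxygen-sensitive transcription factor, fell from 6955 and 8300 to 4465 and 4570 (1.69-fold lower, log2 change -0.75, SE 0.11, adjusted p = 0.00633). Pfkp, a phosphofructokinase, fell from 3975 and 4422 to 2765 and 2920, and Egln3, a hydroxylase that marks HIF proteins for degradation, from 798 and 855 to 588 and 584. Aldoa fell by 0.38 (adjusted p = 0.0484). The count was 12 after median-of-ratios rescaling and 0 without 6-week library 2 or either 8-week library.

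Of 21 genes of NF-kB feedback and chemokines 4 fell (19%, against 1.04% of all genes) and none rose, and 3 of 21 had a positive change. Cxcl1, a neutrophil attractant, fell from 445 and 390 to 88 and 131 (log2 change -1.95, SE 0.50, adjusted p = 0.0459), and the chemokine Cxcl16 from 1006 and 829 to 544 and 597. Nfkb1 fell by 0.40 and Birc3, an inhibitor of apoptosis induced by NF-kB, by 0.62. No call of this list survived leaving out any of the 4 libraries. None of 6 tested neutrophil markers was called, and 1 of 6 had a positive change (median -0.67). Their list summed to 5389 and 2408, then to 1801 and 2669. Most of that was S100a8 (2336 and 907, then 734 and 1191) and S100a9 (2272 and 953, then 741 and 1089), which activated keratinocytes also express, while Csf3r, Ly6g, Elane and Retnlg gave at most 3. Their part in the fall of Cxcl1 was not tested.

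Of 22 senescence and secretory genes, 2 fell, Cxcl1 and Igfbp5 (9.09%, against 1.04% of all genes). Igfbp5, an insulin-like growth factor binding protein, went from 700 and 646 to 137 and 204 (3.95-fold lower, adjusted p = 0.0217). Its call was lost without a filter, in the robust fit, in limma-voom and when any of the 4 libraries was left out. Of 28 TGF-beta and BMP genes 2 fell (7.14%, against 1.04% of all genes) and 1 rose. The falls numbered 6 after median-of-ratios rescaling and at most 1 with a library left out. Tgfbi, a secreted matrix protein, fell from 12914 and 10335 to 7285 and 7276 (log2 change -0.67, adjusted p = 0.00866), Bmpr1b fell from 199 and 148 to 75 and 54, and Tgfb3 rose from 1073 and 860 to 1872 and 1546.

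YAP and TAZ response genes split: 3 of 19 rose and 1 fell (15.8% and 5.26%, against 4.79% and 1.04% of all genes). The paired secreted factors Cyr61 and Ctgf went in opposite directions, Cyr61 up from 469 and 659 to 1664 and 1737 (3.02-fold, log2 change 1.61, SE 0.21, adjusted p = 0.00375) and Ctgf down from 1746 and 2715 to 1079 and 1451 (log2 change -0.80, adjusted p = 0.0399). Cyr61 lost its call without 8-week library 2, and Ctgf without any library but 6-week library 1. Ptpn14, a YAP inhibitor, rose by 0.70.

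**Figure D4:**
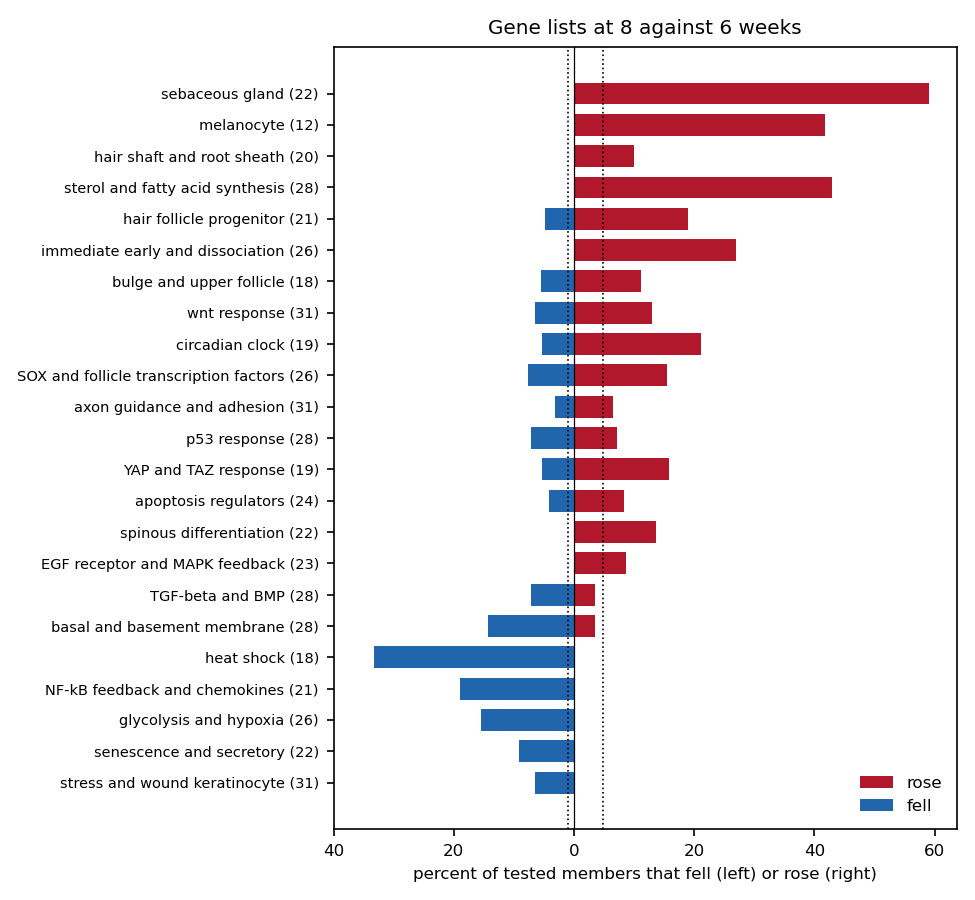
Percent of the tested members of each gene list that rose (red, to the right) or fell (blue, to the left), for lists with at least 10 tested genes and at least 2 calls, ordered by median change, with the number tested in brackets and dotted lines at the 4.79% and 1.04% of all genes. The sebaceous list reaches 59.1% on the right and the heat shock list 33.3% on the left.

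Other signalling lists held few calls, to be read against the 4.79% of all genes that rose and the 1.04% that fell. In the EGF receptor and MAPK feedback list 2 of 23 rose, Dusp4 from 53 and 57 to 146 and 189 and the ligand Nrg4 from 244 and 207 to 401 and 416. In the axon guidance and adhesion list 2 of 31 rose and 1 fell. Sema6a, a membrane semaphorin, rose from 402 and 491 to 1065 and 1153 (2.48-fold, log2 change 1.32, SE 0.13, adjusted p = 0.000591), while Sema3c, a secreted one, fell from 1644 and 1235 to 826 and 931. Sema6a stayed called under all alternatives. The p53 list had 2 rises and 2 falls among 28, with Bbc3, which encodes the death inducer PUMA, going from 34 and 29 to 93 and 92. It was also 1 of 2 rises among 24 apoptosis regulators, with Birc2, beside the fall of Birc3. Single calls were made among Notch genes (Rbpj, from 942 and 899 to 1386 and 1316, of 15), FGF genes (Fgfbp1, from 4089 and 4016 to 2173 and 2398, of 9), matrix remodelling genes (Adam8, from 793 and 594 to 248 and 294, of 22), glucocorticoid targets (Dusp1, of 15) and Nrf2 targets (Gsta3, of 23). Gsta3 stood at 5 and 6, below the floor, and then at 35 and 34, so it passed the filter through its 8-week values alone. With 6-week library 2 or either 8-week library left out, the Wnt, EGF receptor, YAP and p53 lists held at most 1 rise each. No member was called in the lists of interferon response (17 tested), antigen presentation (17), regulators of epithelial to mesenchymal transition (13), mitochondrially encoded genes (14) or the nuclear respiratory chain (30). In the last of these 5 of 30 had a positive change, and 5 members fell after median-of-ratios rescaling.

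Several of the 10 largest rises in the ranking given above belonged to none of these lists. Cyp2f2, a cytochrome P450, rose from 36 and 13 to 361 and 380 (log2 change 4.03, SE 0.56, adjusted p = 0.00451), and the protease inhibitor gene Serpina3b from 12 and 19 to 197 and 146. Adh1, an alcohol dehydrogenase that oxidizes retinol, rose from 29 and 37 to 250 and 250, Cyp17a1, a steroid hydroxylase, from 12 and 24 to 206 and 97, and the cartilage collagen Col2a1 from 20 and 6 to 118 and 95. All of these started from low values at 6 weeks. Serpina3b stayed called under all alternatives, Cyp2f2 lost the call without 8-week library 2, Cyp17a1 without 8-week library 1, Adh1 in limma-voom on recovered reads, and Col2a1 without any library but 6-week library 1.

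Il24, a cytokine of wounded skin and the other fall of the stress and wound list, went from 256 and 264 at 6 weeks to 28 and 18 at 8 weeks. It was 11.3-fold lower (log2 change -3.47, SE 0.73, adjusted p = 0.0245), but the call was lost when any of the 4 libraries was left out. Ifi202b, an interferon-inducible gene of the innate DNA-sensing family, fell from 729 and 755 to 75 and 118 (7.69-fold lower, log2 change -2.97, SE 0.38, adjusted p = 0.00328) and kept its call under every alternative. In the list of retinoid genes the 1 call among 16 (6.25%, against 1.04% of all genes that fell) was Cyp26b1. This gene, whose product degrades retinoic acid, fell from 359 and 236 to 44 and 74 (log2 change -2.33). The secreted protein gene Lgi2 fell from 120 and 143 to 14 and 18. Prr9, Zfp991 and Gpr35 also fell, with log2 changes of -2.37, -1.98 and -1.94. Cyp26b1, Prr9, Zfp991 and Gpr35 lost the call without a filter, and Lgi2 lost it at pseudocount 0.5 and with the filter at 50. Cyp26b1, Lgi2, Prr9 and Zfp991 also lost it when any of the 4 libraries was left out, and Gpr35 without any but 6-week library 1. Smim3 fell from 2855 and 2864 to 1240 and 1166 and Ostf1 from 875 and 871 to 468 and 439, and both kept their call under all alternatives.

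Markers of other cell types were followed because a sort can carry other cells along. Of 12 tested melanocyte markers 5 rose and none fell (41.7%, against 4.79% of all genes), and all 12 had a positive change (median 0.96). Many of these markers are low, and the median over all tested genes was 0.56 at means under 50 and 0.27 at means from 50 to 200. One of the 5, Mc1r, stood at 0 and 3 at 6 weeks, so it passed the filter through its 8-week values of 12 and 13. Dct, an enzyme of melanin synthesis, went from 137 and 143 to 269 and 335 (log2 change 1.10, SE 0.16, adjusted p = 0.00497), Tyrp1 from 84 and 119 to 199 and 233, Tyr from 22 and 16 to 49 and 54, and Kit from 17 and 16 to 38 and 44. The summed level of the 15 markers was 1243 and 1129 at 6 weeks and 1823 and 1999 at 8 weeks. The count of rises was 1 after quantile normalization, in limma-voom on recovered reads and without 8-week library 1, and 0 without 8-week library 2. Whether melanocytes in the sort contributed to other results was not tested.

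The 12 endothelial markers summed to 316 and 301, then to 457 and 429, and of the 4 tested Vwf rose, from 39 and 37 to 142 and 115, while Kdr, Emcn and Flt1 gave at most 5 in each library. Thy1, found on T cells and fibroblasts alike, fell from 309 and 238 to 56 and 80 (4.02-fold lower, adjusted p = 0.0129), and its call was lost without any of the 4 libraries. The T cell receptor subunits Cd3e, Cd3d and Cd3g gave at most 16 in each library. No other call was made among 8 tested T and NK cell and 15 tested fibroblast markers, nor any among the macrophage, Merkel cell, muscle and adipocyte lists. The sex-linked genes followed gave no call.

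The falls with the smallest p belonged to genes that have near-identical copies elsewhere in the genome, and their values are uncertain for that reason. Tpm3-rs7, a copy of the tropomyosin gene Tpm3, fell from 846 and 860 to 68 and 64 (12.9-fold lower, log2 change -3.67, SE 0.19, adjusted p = 1.88e-05), while Tpm3 itself stood at 4233 and 4313, then at 4539 and 4634. Rps26-ps1, a copy of the ribosomal protein gene Rps26, fell from 1028 and 987 to 144 and 136 (7.20-fold lower, log2 change -2.84, SE 0.18, adjusted p = 3.64e-05), while Rps26 stood at 8083 and 8053, then at 9009 and 8625. Both copies kept their call under all alternatives, and neither parent gene was called.

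In other ribosomal protein genes the fall was in the parent gene and copies were higher. Rps3a1 fell from 7971 and 7291 to 3660 and 3560 (2.11-fold lower, log2 change -1.08, SE 0.09, adjusted p = 0.000156). Its copies Rps3a3 and Rps3a2 rose, Rps3a3 from 1923 and 1829 to 3693 and 3425 and Rps3a2 from 521 and 548 to 782 and 867. Summed over the 3 copies, the values were 10415 and 9668 at 6 weeks and 8135 and 7852 at 8 weeks, a ratio of 0.796.

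Rpsa fell from 10299 and 10214 to 5398 and 4983 while its copy Rpsa-ps10 stood at 2649 and 2632, then at 4135 and 4007. Their sum went from 12948 and 12846 to 9533 and 8990, a ratio of 0.718. Rps2 fell from 8131 and 8238 to 5934 and 5491, and the copy Rps2-ps10 rose from 29 and 16 to 833 and 822. Over a list of 44 ribosomal protein genes that leaves out Rps3a1 and Rpsa, Rps2 was the 1 call, a fall, and the median change was -0.05.

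Gene type and level also moved with the direction of change. Of 1023 tested models of the GENCODE type TEC, transcripts still awaiting experimental support, 138 rose (13.5%) and none fell, with a median change of 0.97. Of 135 sense intronic models 14 rose and none fell, with a median of 0.82. Among 13815 protein coding genes 4.40% rose and 1.27% fell, with a median of 0.07. Of the 138 TEC models that rose, 123 (89.1%) lay inside a protein coding gene, 113 of them on its strand. Of all 1023 tested TEC models, 809 (79.1%) lay inside one, 656 of them on its strand. The 84 coding genes that held the models that rose had a median change of 0.28, and 18 of these rose and none fell. The 530 coding genes that held any tested TEC model had a median change of 0.13, and 43 rose and 5 fell.

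The median change was 0.56 for the 5449 genes with a mean under 50, 0.27 for means from 50 to 200, 0.06 from 200 to 1000 and -0.01 from 1000 up. Summed values of TEC models were 77828 and 70339 at 6 weeks and 99890 and 125856 at 8 weeks. Among coding genes, the median genomic span was 40199 bp for those that rose and 25930.5 bp for those that fell, against 23602 bp for all tested. Without TEC and sense intronic models the calls numbered 899, of which 79.3% were rises. The part of intronic or unspliced RNA in these results was not tested.

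**Figure D5:**
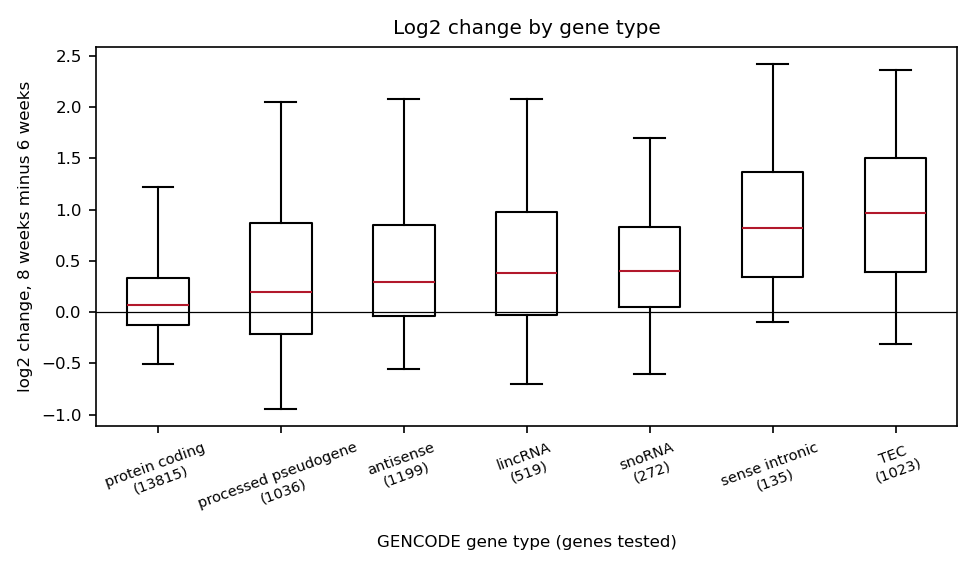
Log2 change, 8 weeks minus 6 weeks, by GENCODE gene type, with the median in red, the box from the lower to the upper quartile and whiskers from the 5th to the 95th percentile, and the number of tested genes in brackets. The medians of the TEC and sense intronic types, 0.97 and 0.82, lie above that of protein coding genes, 0.07.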

How the data were processed

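The authors deposited 1 table of normalized counts, used here as a score: the columns sum to about the same total, and at least 99.3% of values below 20000 in each library used equal whole reads times 1 step, rounded up. The submitters' processing notes name STAR, HTSeq and GRCm38 (mm10). How the values were normalized, which annotation was counted and whether strand was used is not stated in those notes or in the table. The log2 of each value plus 1 was fitted with limma 3.58.1 in R 4.3.3 (lmFit, eBayes with trend) over all 10 libraries in 5 groups, with 5 residual and 5.68 prior degrees of freedom. Two-sided p-values were adjusted by Benjamini-Hochberg over 19285 genes and called at 0.05. An exact permutation test of 2 against 2 libraries cannot go below 0.333. GENCODE vM21 gave positions and types for 49412 of 49671 IDs. Floors cover counting error only, because no count of molecules is stated and PCR copies may be among the reads.

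Of 1047 entries in 50 gene lists, 1045 matched. The members and lists were chosen with earlier results of these data known. Named genes were 7 fixed genes (Ivl, Krt10, Krt14, Ptch1, Gli1, Smo, Birc5), the 10 genes that rose most and the 10 that fell most among called genes with a mean of at least 50 and no overlap (predicted models and pseudogenes left out), the 5 smallest p in each direction (pseudogenes included), and up to 4 called members of each list, or its 2 most abundant where none was called. Other genes were named after their values were seen. There were 20 alternatives: pseudocounts 0.5 and 5, other filters, rescalings and sets of libraries, robust, weighted, blocked and covariate fits, limma-voom on recovered reads, and each library left out. The one without TEC and sense intronic models was chosen after seeing the data. Some genes that this rule names, and others, are not reported here.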

Additional observations from a re-analysis of the deposited data

How the results depend on the processing

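The calls (1124 genes: 924 rising, 200 falling, 673 at least 2-fold) moved with the samples used to estimate the spread. A fit to the 4 libraries gave 2366 (1657 rising, 709 falling), the 6 Krt14 libraries 1930 (1431 and 499), no gain of function libraries 2753 (2108 and 645, 1176 at least 2-fold), array weights 2981 (2356 and 625, 1419 at least 2-fold) and Xist as a covariate 1912 (1505 and 407). No filter gave 497 (409 and 88, 330 at least 2-fold), and quantile normalization 630 (412 rising, 352 at least 2-fold). Median-of-ratios rescaling gave 566 falling, and limma-voom 555 rising and 425 at least 2-fold. With a library left out, calls ranged from 79 to 880, rises from 56 to 803, falls from 23 to 77 and changes of at least 2-fold from 74 to 692. The lone library is then assumed to vary like the other groups.

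With the replicate number as a block (replicate block) the calls were 1040 (854 rising, 186 falling, 629 at least 2-fold). The numbers do not pair the samples: deviations of same-numbered libraries at 6 and 8 weeks correlated at -0.037. Pseudocounts, the filter at 50, the robust fit, leaving out X and Y genes and leaving out TEC and sense intronic models kept all 4 counts within 1.5 times. The cause of these shifts was not tested.

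Of 3054 values of named genes under alternatives, 2465 kept direction and side of the threshold, 512 lost the call, 73 gained it and 4 turned sign, none of them called. With a library left out, the log2 change of Birc5 ranged from -0.19 to 0.0055 and that of Ivl from -0.13 to 0.51. After median-of-ratios rescaling Tpm3 was at -0.045 and Rps26 at -0.019. Low genes are limited by depth, since 3 reads are worth about 7 to 8 in these values.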
